A study of Mus musculus with 8 samples.

Results

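The transcripts described are those of 58 nuclear-encoded subunits of the mitochondrial respiratory chain, chosen by gene symbol from a count table of 52459 genes. They comprise 35 subunits of complex I, 4 of complex II, 9 of complex III and 10 of complex IV. All 58 were in the table, and all 58 passed the filter on low counts. The rule for their choice uses no measured value.

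RNA was sequenced from 8 libraries, each from the splenic AE9a-positive leukaemic cells of 1 moribund C57BL/6J mouse. AE9a is a truncated RUNX1-RUNX1T1 fusion protein that causes acute myeloid leukaemia in mice. The cells of all 8 mice, controls included, derive from cKit-positive C57BL/6J marrow given a retrovirus with AE9a and a hairpin against Tet2 that doxycycline switches on (genotype RTA shTet2). Recipients were lethally irradiated at 6 to 8 weeks of age and received 50000 leukaemic and 500000 wild-type support marrow cells, so the spleen also held cells of host and support marrow. The controls, called PBS knockdown here, were 3 secondary recipients that stayed on doxycycline and were treated with PBS (mice 16, 17 and 19). A second group was 2 secondary recipients off doxycycline given PBS (mice 21 and 23), labelled Tet2-restored. The ascorbate group was 2 secondary recipients on doxycycline treated with ascorbate (mice 28 and 30). The remaining library came from 1 primary recipient on doxycycline (mouse 12). Each mouse is one replicate, and the labels do not say whether the secondary recipients of different groups received cells of the same primary leukaemia. Tetracyclines such as doxycycline are known to inhibit mitochondrial protein synthesis, and removal of doxycycline and release of Tet2 cannot be told apart in this design.

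The respiratory chain passes electrons from NADH and succinate to oxygen and pumps protons across the inner mitochondrial membrane. Complex I oxidises NADH, complex II oxidises succinate as part of the citric acid cycle, complex III passes electrons from ubiquinol to cytochrome c, and complex IV reduces oxygen. Mitochondrial DNA encodes the membrane core of complexes I, III and IV, and the nucleus encodes the other subunits, so the supply of both has to match in the assembled enzyme. Acute myeloid leukaemia cells are known to depend strongly on this pathway.

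Levels are given as CPM (counts scaled to a common library total) on totals scaled by the trimmed mean of M-values (TMM), and differences as log2 fold changes with the standard error (SE) of the fit. For Tet2, the target of the hairpin, control mice 16, 17 and 19 had 12.6, 12.8 and 13.5 CPM. It was at 14.1 and 23.0 CPM in the mice 21 and 23 labelled restored, at 13.4 and 11.7 in the ascorbate mice 28 and 30, and at 9.46 in mouse 12. Mouse 21, though labelled restored, thus lay close to the highest PBS knockdown mouse for Tet2, and the label is kept with that limit. Total counts ran from 18136978 to 34197877 per library, and mitochondrially encoded genes took 5.16% to 17.1% of them. The 58 subunits together took 0.539% to 0.689% of the counts. Of the marker lists, the leukaemia and progenitor list summed to 536 to 952 CPM led by Myb with 176 to 462 CPM and with no marker at 0 throughout, and the erythroid list to 5076 to 13461 CPM. Fewer cells of a type and less RNA per cell cannot be told apart in these bulk libraries.

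Most subunits are small proteins with short transcripts, and many have processed pseudogenes. Of the 58, 22 shared at least one 50-base word with an annotated gene elsewhere in the genome (GENCODE vM21, GRCm38), and for 20 this included a pseudogene. For 5 subunits over 30% of the words were shared: Cox7c with 53.0%, Uqcrb with 43.2%, Ndufb4 with 37.0%, Ndufs3 with 35.8% and Ndufs5 with 31.1%. In addition, 19 subunits overlapped exons of a neighbouring gene, among them Ndufs1 with Eef1b2 and Ino80dos. The strand and multi-mapping settings of the counting are not given in the sources used here, so values of these genes are uncertain. The coding sequence of Cox7c (chr13:86044816-86046904, minus strand), a small complex IV subunit, is identical over all 189 bases to the pseudogene Gm12338 (chr11:75599763-75599954). It differs by 2 mismatches from Gm10012 (chr17:25901856-25902227), a copy annotated as transcribed. The coding sequence of Ndufs5 (chr4:123712710-123718202, minus strand), a complex I subunit at the intermembrane space, differs by 2 mismatches over 318 bases from BC002163 (chr16:42955631-42955949). The 2 pairs are shown because Cox7c and Ndufs5 had the lowest levels of all 58. Capitals mark the bases at which each pair differs.
Cox7c coding sequence: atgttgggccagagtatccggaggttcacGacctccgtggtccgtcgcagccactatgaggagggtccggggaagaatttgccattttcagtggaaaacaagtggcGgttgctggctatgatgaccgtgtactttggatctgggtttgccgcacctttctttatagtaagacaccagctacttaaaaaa
Gm10012, same stretch: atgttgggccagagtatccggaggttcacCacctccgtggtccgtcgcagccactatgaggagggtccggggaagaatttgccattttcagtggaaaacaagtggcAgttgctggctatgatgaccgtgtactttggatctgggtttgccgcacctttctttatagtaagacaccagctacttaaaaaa
Ndufs5 coding sequence, bases 1 to 200: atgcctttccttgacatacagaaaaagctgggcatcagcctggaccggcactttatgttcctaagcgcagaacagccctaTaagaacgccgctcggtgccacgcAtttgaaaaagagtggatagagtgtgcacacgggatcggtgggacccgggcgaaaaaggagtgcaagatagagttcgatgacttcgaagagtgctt
BC002163, same stretch: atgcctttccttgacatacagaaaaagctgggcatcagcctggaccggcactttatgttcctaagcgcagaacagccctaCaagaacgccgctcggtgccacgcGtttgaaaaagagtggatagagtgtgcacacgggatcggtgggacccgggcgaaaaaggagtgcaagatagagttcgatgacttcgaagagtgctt

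Between genes, levels were compared as the deposited FPKM, which is per length. Cox7c had a mean of 1.98 FPKM over the 8 libraries and Ndufs5 of 1.54, against a median of 59.7 FPKM over the 58 subunits. Raw counts were 30 to 81 per library for Cox7c and 19 to 50 for Ndufs5, so both values rest on few reads. The Ndufs5 copy BC002163 held 464 counts over the 8 libraries and the 3 copies of Cox7c held 4. Whether reads of these subunits were lost to their copies was not tested. Uqcrb, with more sharing than Ndufs5, was at 27.7 FPKM, and its copies held 8 counts. Ndufb2, with 0.0694% shared words, was at 3.51 FPKM, a value divided by an implied length of 5624 bases. Its mean was 19.9 CPM, against 2.26 for Cox7c and 1.34 for Ndufs5.

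**Figure D1:**
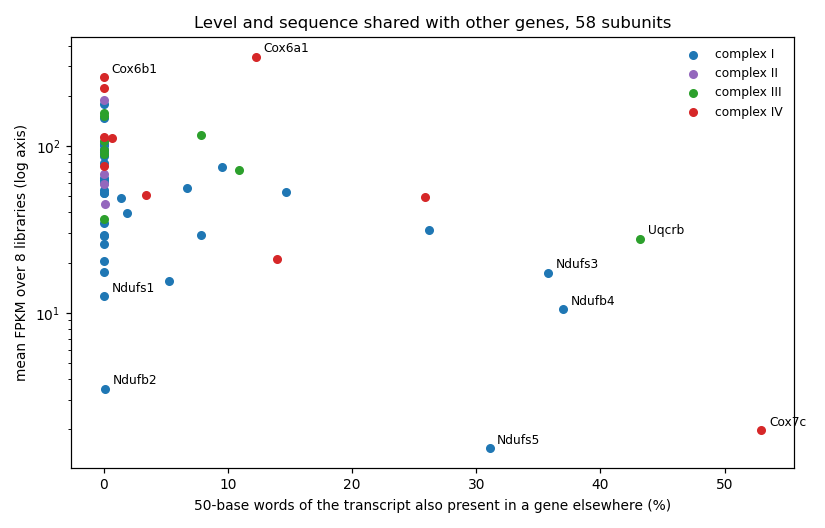
Mean FPKM over 8 libraries (vertical, log axis) against the percentage of 50-base words of the transcript that occur in a gene elsewhere (horizontal) for the 58 subunits, coloured by complex. Cox7c (1.98 FPKM) and Ndufs5 (1.54 FPKM) lie lowest with 53.0% and 31.1% shared words, while Cox6a1 lies highest at 343 FPKM with 12.3%.

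The subunits were abundant transcripts. Their median of 59.7 FPKM stood beside 6.48 FPKM over the 12137 genes tested, and 15 of 58 were above 100 FPKM. Complex medians were 52.5 FPKM for complex I, 63.4 for complex II, 94.6 for complex III and 94.3 for complex IV. In complex IV, the small subunits Cox6a1 and Cox6b1 led with 343 and 258 FPKM, followed by Cox4i1 with 224. In complex II, Sdhd, a membrane anchor, was highest at 188 FPKM, Sdha, the flavoprotein that binds succinate, was at 67.7, and Sdhc, the other anchor, was lowest at 45.1. In complex III, Uqcr10 and Uqcrc2 led with 157 and 151 FPKM, and Uqcrb was lowest at 27.7. In complex I, the accessory subunits Ndufa6 and Ndufb9 led with 179 and 148 FPKM, and Ndufs1, the largest core subunit, was at 12.6. The library ranges of the leading pair of complex IV overlapped (Cox6a1 245 to 466 FPKM, Cox6b1 226 to 304), as did those of Uqcr10 (105 to 202) and Uqcrc2 (133 to 171). The order depended on the length used. The length implied by the deposited FPKM was up to 7.26 times that of the principal GENCODE transcript (Ndufb7), and per principal transcript Cox4i1 came first and Cox6a1 second.

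The controls themselves differed by an amount close to the group differences. Relative to the mean of the 3 PBS knockdown mice, the median of the 58 subunits lay at −0.13 (log2) in mouse 16, 0.17 in mouse 17 and −0.02 in mouse 19. It lay at 0.24 and 0.18 in the labelled restored mice 21 and 23, at 0.30 and 0.14 in the ascorbate mice 28 and 30, and at −0.13 in mouse 12. Mouse 17, a control, was thus higher than ascorbate mouse 30 and close to both labelled restored mice. In mouse 17, 55 of 58 subunits were above the control mean, in mouse 16 it was 7, and in mouse 19 it was 20. The SD of the subunits' median over the 3 controls was 0.155, and by complex it was 0.170 for complex I, 0.0695 for II, 0.175 for III and 0.182 for IV. The subunits with the largest spread over the controls were Ndufs5, Cox8a and Ndufs7. Cox8a, a small complex IV subunit, was at 38.3, 74.7 and 54.2 CPM in mice 16, 17 and 19. Ndufs7, a complex I core subunit that holds the last iron-sulphur cluster before ubiquinone, was at 41.8, 72.9 and 58.5 CPM. Mouse 17 was highest for both. That mouse also had the highest erythroid marker sum, 13461 CPM against 8162 and 6078 in mice 16 and 19, and its part in the spread was not tested.

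**Figure D2:**
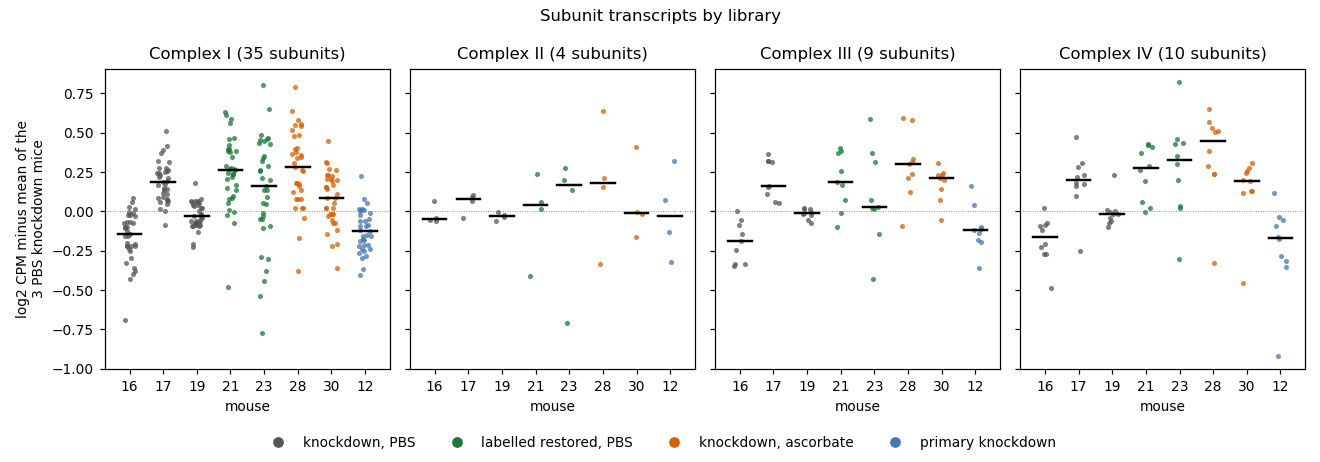
Log2 CPM of each subunit minus its mean over the 3 PBS knockdown mice (vertical), by mouse (horizontal) and complex; points are subunits and bars their medians. Control mouse 17 lies above 0 for 55 of 58 subunits, beside the labelled restored mice 21 and 23 and the ascorbate mice 28 and 30.

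The comparison of the labelled restored mice with the PBS knockdown mice sets leukaemia off doxycycline beside leukaemia kept on it. Most subunits were slightly higher in the labelled restored mice, with a median log2 fold change of 0.23 against −0.002 over all 12137 genes, and 47 of 58 were above 0 against 49.8% of all genes. With an offset for transcript length and GC content in each library the median was −0.04 and 26 of 58 were above 0, so the direction depended on this choice. The complex medians were 0.25 for complex I, 0.13 for II, 0.10 for III and 0.35 for IV, and with the offset they were −0.08, −0.10, −0.002 and 0.03. Leaving out single libraries also moved them, complex I to 0.16 and complex IV to 0.20 without control mouse 16, complex II to 0.03 without mouse 23, and complex III to 0.04 without mouse 21 and 0.18 without control mouse 17. Sdha and Ndufs1 lay lowest, below the controls by 0.55 and 0.61 on the log2 scale. None of these differences passed the threshold of 0.05.
 
By edgeR's quasi-likelihood test with Benjamini-Hochberg adjustment, 0 of 58 subunits passed, as did 0% of all 12137 genes. limma voom also called 0 subunits, and at an unadjusted p under 0.05 edgeR listed 13 of 58, against 29.2% of all genes. Of these, 11 were higher, against 14.1% of all genes. The DESeq2 Wald test called 4 subunits, Ndufv3 and Ndufs4 higher and Ndufs1 and Sdha lower, where it called 16.1% of all genes. In 24 of 58 subunits both labelled restored mice were above all 3 controls, against 24.4% of all genes, and in 3 (Ndufs1, Sdha and Ndufa9) both were below, against 24.9%. Without control mouse 16 the median was 0.14. In simulated data this test recovered 29.0% of 2-fold and 92.8% of 4-fold changes. The simulation gave all genes the same spread and no length difference between libraries, so these shares need not hold for the real libraries. There the test called 0 of 12137 genes, whose log2 fold changes ran from −10.6 to 4.78. In this comparison every difference among the 58 subunits was smaller than 2-fold.

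Within complex I, the core subunit Ndufs1 (chr1:63143596-63176833, minus strand), which holds iron-sulphur clusters of the NADH-oxidising arm, was at 119, 116 and 108 CPM in the controls and at 82.0 and 67.0 in the labelled restored mice. Both were below every control, with a log2 fold change of −0.61 (SE 0.16, edgeR adjusted p = 0.0649). Ndufv3 (chr17:31520115-31531331, plus strand), an accessory subunit of the same arm, was at 83.0, 127 and 101 CPM in the controls and at 150 and 178 in the labelled restored mice. Both were above every control, with a log2 fold change of 0.67 (SE 0.20, adjusted p = 0.0756). Ndufs4 (chr13:114287795-114388258, minus strand), an accessory subunit whose loss causes Leigh syndrome, was at 48.5, 50.8 and 53.1 CPM in the controls and at 66.3 and 79.7 in the labelled restored mice. The groups again did not overlap, with a log2 fold change of 0.53 (SE 0.17, adjusted p = 0.0842). Ndufa2, a small accessory subunit, had a log2 fold change of 0.50 (SE 0.22, adjusted p = 0.171). Ndufa9, an accessory subunit at the junction of the 2 arms of complex I, was at 117, 124 and 116 CPM in the controls and at 113 and 87.6 in the labelled restored mice, a log2 fold change of −0.24 (SE 0.15, adjusted p = 0.321). That value was −0.42 without mouse 21 and −0.08 without mouse 23.

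In complex II the catalytic flavoprotein stood apart from its partners. Sdha (chr13:74322254-74350280, minus strand) was at 324, 300 and 304 CPM in the controls and at 233 and 189 in the labelled restored mice, both below every control. The difference came to −0.55 on the log2 scale (SE 0.15, adjusted p = 0.0659 by edgeR), while Sdhb, the iron-sulphur subunit, had 0.11 (SE 0.14), Sdhc 0.23 (SE 0.14) and Sdhd 0.16 (SE 0.15). Sdhc was above the control range, with 167 and 162 CPM against 135 to 148, and the ranges of Sdhb and Sdhd overlapped those of the controls. The difference between Sdha and the other 3 was not tested.

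In complex III, cytochrome c1 (Cyc1), which carries the haem that reduces cytochrome c, had a log2 fold change of −0.22 (SE 0.20, adjusted p = 0.482) with overlapping groups. It was −0.43 without mouse 21, −0.03 without mouse 23 and −0.05 without control mouse 17. The Rieske iron-sulphur protein Uqcrfs1 was at 108, 117 and 112 CPM in the controls and at 134 and 145 in the labelled restored mice, a log2 fold change of 0.32 (SE 0.14, adjusted p = 0.159). The small subunit Uqcr10 was at 61.8, 97.4 and 78.9 CPM in the controls and at 102 and 117 in the labelled restored mice, a log2 fold change of 0.47 (SE 0.20, adjusted p = 0.158). Both subunits were above all controls, without passing the threshold.

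In complex IV, Cox4i1, a subunit that adjusts the enzyme to ATP, was at 261, 355 and 306 CPM in the controls and at 394 and 419 in the labelled restored mice. The groups did not overlap, with a log2 fold change of 0.41 (SE 0.16, adjusted p = 0.130). Cox7c had 0.55 (SE 0.36, adjusted p = 0.335), from 2.30, 1.89 and 2.67 CPM against 2.59 and 4.06, and the groups overlapped. It was 0.85 without mouse 21 and 0.18 without mouse 23. Cox7b, a small structural subunit encoded on the X chromosome, was the only member of the complex below 0, with −0.14 (SE 0.16).

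**Figure D3:**
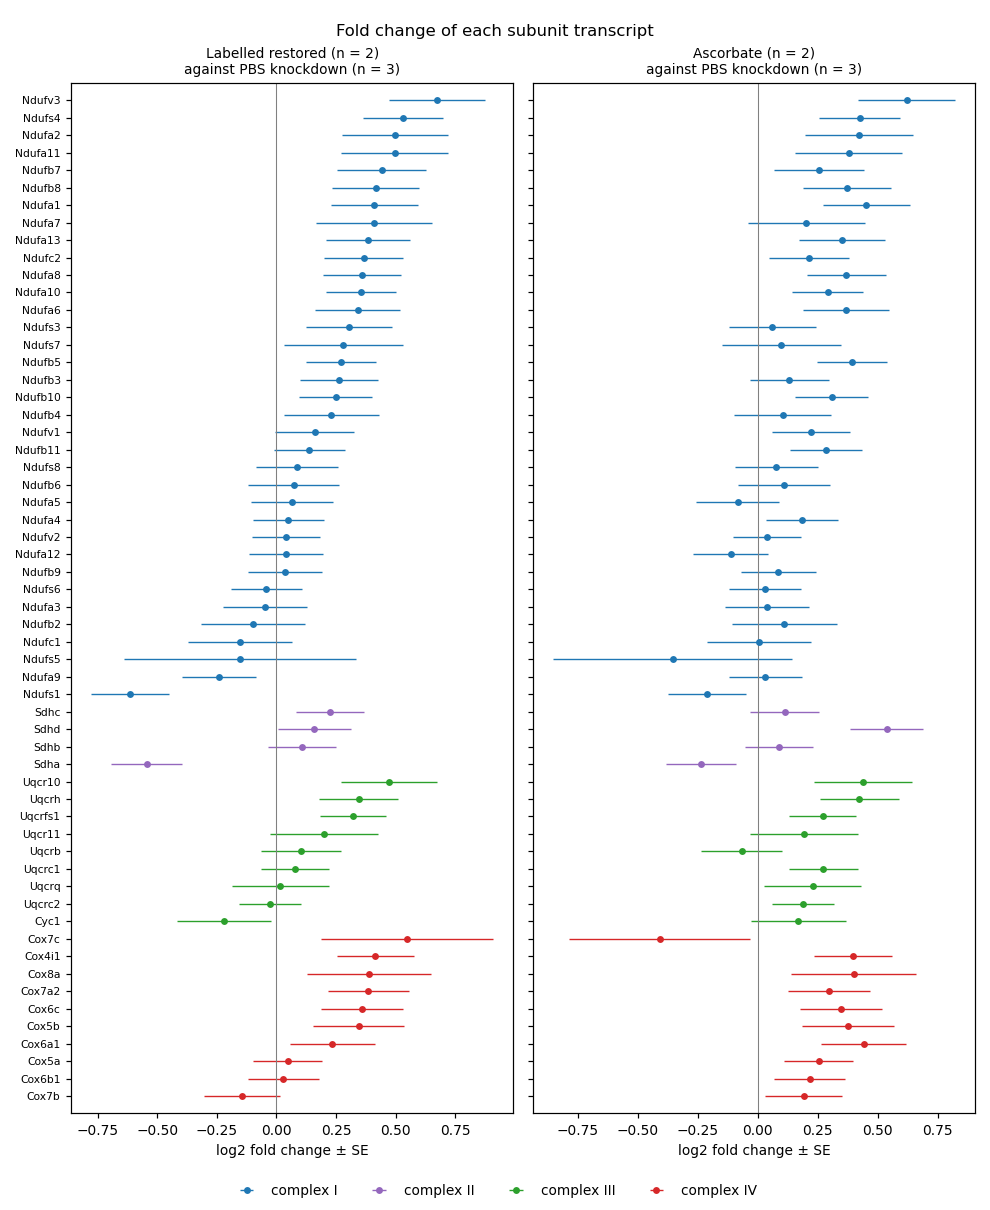
Log2 fold change (horizontal, points, with bars of ± SE) of each of the 58 subunits (vertical, ordered within each complex) for the labelled restored mice (left) and the ascorbate mice (right), each against the same 3 PBS knockdown mice. At left 47 of 58 points lie above 0 and Ndufs1 (−0.61) and Sdha (−0.55) lie farthest below it, and at right 51 of 58 lie above 0.

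The comparison of the ascorbate mice with the PBS knockdown mice asks what ascorbate, which TET enzymes use as a cofactor, did under continued knockdown. It uses the same 3 controls as the comparison above, so the 2 sets of values are not independent. The subunits were again slightly higher, with a median log2 fold change of 0.22 against −0.01 over all genes, and 51 of 58 were above 0 against 49% of all genes. With the length and GC offset the median was 0.08 and 39 of 58 were above 0. Complex medians were 0.18 for complex I, 0.10 for II, 0.23 for III and 0.32 for IV, and with the offset they were 0.06, 0.09, 0.18 and 0.11. Without ascorbate mouse 28 they were 0.09, −0.01, 0.21 and 0.16. By edgeR 0 of 58 subunits passed the threshold, against 347 genes or 2.86% of those tested. At an unadjusted p under 0.05 it listed 9 of 58, all higher, where 23.6% of all genes and 10.7% in the higher direction did. limma voom called 0 subunits, and the DESeq2 Wald test called Ndufv3 and Sdhd higher, where it called 11% of all genes. In 18 of 58 subunits both ascorbate mice were above all controls, against 21.3% of all genes, and in Sdha and Cox7c both were below, against 24.4%. The median of the 58 was 0.14 without control mouse 16, 0.32 without control mouse 17 and 0.13 without ascorbate mouse 28. The 347 genes were 2 without ascorbate mouse 28, 7 without mouse 30, 5 without control mouse 16, 87 without control mouse 17 and 15 without control mouse 19.

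Sdhd (chr9:50596357-50603812, minus strand) had the smallest adjusted p of the 58. It was at 203, 226 and 201 CPM in the controls and at 326 and 278 in the ascorbate mice, both above every control, with a log2 fold change of 0.54 (SE 0.15, edgeR adjusted p = 0.0860). Sdha was at 245 and 276 CPM, below the control range of 300 to 324, with a log2 fold change of −0.24 (SE 0.15, adjusted p = 0.348). In complex II the anchor and the flavoprotein thus lay on opposite sides of the controls, and neither passed the threshold. Sdhb and Sdhc had log2 fold changes of 0.09 (SE 0.14) and 0.11 (SE 0.14).

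Of the complex I subunits, Ndufv3 was at 176 and 139 CPM in the ascorbate mice, above its controls, with a log2 fold change of 0.62 (SE 0.20, edgeR adjusted p = 0.114). Ndufs4 was at 74.5 and 60.8 CPM, also above its controls, with 0.42 (SE 0.17, adjusted p = 0.169). Ndufa1, a small membrane-arm subunit encoded on the X chromosome, was at 30.5, 42.1 and 37.3 CPM in the controls and at 54.2 and 45.0 in the ascorbate mice, with 0.45 (SE 0.18, adjusted p = 0.175). These 3 had separate ranges. Ndufs1 was at 87.8 and 108 CPM and overlapped the controls, with −0.21 (SE 0.16, adjusted p = 0.445), which was −0.08 without mouse 28 and −0.36 without mouse 30. Ndufs5 was at 1.25 and 1.09 CPM against 0.848, 2.05 and 1.62, a log2 fold change of −0.35 whose SE of 0.50 was larger than the value, and −0.08 without control mouse 17.

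In complex III, Uqcrh, the hinge protein that helps cytochrome c1 bind cytochrome c, was at 116, 143 and 127 CPM in the controls and at 194 and 148 in the ascorbate mice, a log2 fold change of 0.42 (SE 0.17, edgeR adjusted p = 0.164). Uqcrc2, a core protein of the matrix side, was at 373, 387 and 358 CPM in the controls and at 432 and 410 in the ascorbate mice, a log2 fold change of 0.19 (SE 0.13, adjusted p = 0.403). In complex IV, Cox6a1 (chr5:115345642-115348981, minus strand) was at 181, 265 and 216 CPM in the controls and at 323 and 270 in the ascorbate mice, a log2 fold change of 0.44 (SE 0.18, adjusted p = 0.176). With the length and GC offset that value was −0.01, and without mouse 28 it was 0.29. All 3 subunits were above every control without passing the threshold. Cox7c was at 1.79 and 1.63 CPM, below the controls, a log2 fold change of −0.41 (SE 0.38, adjusted p = 0.532).

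**Figure D4:**
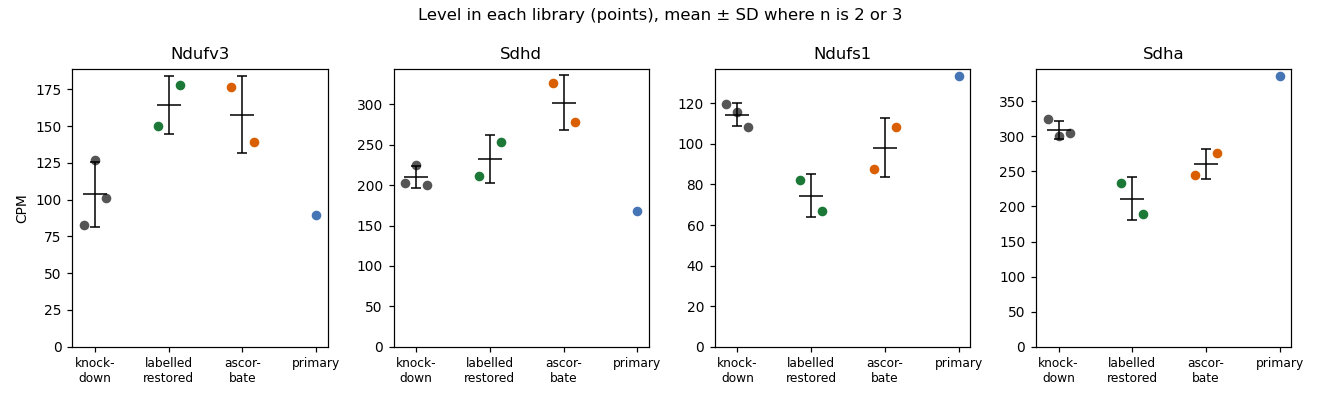
CPM (vertical, from 0) of Ndufv3, Sdhd, Ndufs1 and Sdha in each library (points) by group (horizontal), with mean ± SD for the groups of 2 or 3 mice. The labelled restored mice lie below all controls for Ndufs1 (67.0 and 82.0 CPM) and Sdha (189 and 233 CPM), and the ascorbate mice lie above them for Ndufv3 and Sdhd.

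The 2 arms were also compared directly, which tests their difference itself. The median log2 fold change of labelled restored against ascorbate was −0.003 over the 58 subunits, with 29 of 58 above 0 against 51.4% of all genes. With the length and GC offset the median was −0.13 and 13 of 58 were above 0, beside a median of −0.03 over all genes. Without ascorbate mouse 30 it was −0.13 with 11 of 58 above 0, and without ascorbate mouse 28 it was 0.12 with 38 of 58. By edgeR 0 of 58 passed, against 0.00824% of all genes. DESeq2 called 0 of 58, against 3.66% of all genes, limma voom called 0, and 2 of 58 were under an unadjusted p of 0.05 against 16.2% of all genes. Those 2 were Cox7c, higher with 0.96 (SE 0.41, adjusted p = 0.291) where 8.85% of all genes were higher at that p, and Ndufs1 with −0.40 (SE 0.18, adjusted p = 0.305). Both labelled restored mice were above both ascorbate mice in 7 subunits, against 23.8% of all genes, and below them in 14, against 20.8%. The 14 included 4 of complex I, 2 of complex II, 4 of complex III and 4 of complex IV. Cyc1 had −0.39 (SE 0.22), Sdhd −0.38 (SE 0.17) and Cox7b −0.33 (SE 0.17). On the positive side Ndufs3, a core subunit near the ubiquinone site, had 0.24 (SE 0.20), Ndufa7, an accessory subunit, 0.21 (SE 0.27) and Ndufs5 0.20 (SE 0.54). Complex medians ran from −0.14 in complex II to 0.01 in complex I. With library totals in place of TMM the median of the 58 was 0.12 and that of all genes 0.13.

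The primary library was compared with the PBS knockdown mice to set the secondary controls beside a primary leukaemia. The labels do not say whether the controls received cells of that mouse. It is a lone library, assumed in the fit to vary like the other groups. Its subunits were mostly lower, with a median log2 fold change of −0.16 and 8 of 58 above 0, against 48.8% of all 13024 genes tested. By edgeR 0 of 58 passed, against 0.115% of all genes. DESeq2 called 0 of 58, against 1.69% of all genes, and limma voom called 0. None of the 58 was under an unadjusted p of 0.05 by edgeR, against 9.08% of all genes and 4.39% in the higher direction. Cox7c was lowest with −1.0 (SE 0.50, adjusted p = 0.592), at 1.16 CPM against 1.89 to 2.67. The lowest pair of the labelled restored comparison lay above 0 here. Sdha was at 386 CPM, a log2 fold change of 0.29 (SE 0.18), and Ndufs1 at 134 CPM, a log2 fold change of 0.20 (SE 0.20), and both were above every other library. Without control mouse 17 the median was −0.07 and 22 of 58 were above 0.

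The core subunits include those that carry the electron path. Of 12 (Ndufs1, Ndufs3, Ndufs7, Ndufs8, Ndufv1, Ndufv2, Sdha, Sdhb, Sdhc, Sdhd, Uqcrfs1 and Cyc1), 9 were above 0 in the labelled restored and 10 in the ascorbate mice, with medians of 0.13 and 0.09. Among them Ndufv1, which binds NADH, and Ndufv2 had 0.16 (SE 0.16) and 0.04 (SE 0.14) in the labelled restored mice, beside −0.61 for Ndufs1 of the same arm.

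Over all genes, the fold changes varied with transcript length, and within the 58 subunits they did so little in the 2 treated comparisons. The libraries differed in how short and long transcripts were represented. Of the 12137 genes tested, the 10192 with a length implied by the deposited FPKM were divided into 5 classes of near equal size. The shortest class, up to 2206 bases, held 42 of the 58 subunits. The lengths, those implied by the deposited FPKM, were 419 bases (Ndufa1) to 8085 bases (Ndufs1). Their median was 1292 for the subunits and 4097 for the tested genes with such a length. In the labelled restored comparison all genes of the shortest class had a median of 0.26 and the 42 subunits 0.22. In the ascorbate comparison the values were 0.17 and 0.20, and for the primary library both were −0.18. In the shortest class the subunits thus lay beside other genes of like implied length in these 3 comparisons. Between the labelled restored and the ascorbate mice, all genes of that class had a median of 0.10 and the 42 subunits −0.01. The 9 subunits of the next class had 0.35 against 0.09 for all genes in the labelled restored comparison, and 0.29 against 0.04 in the ascorbate comparison. The 4 of the middle class had 0.22 against −0.05 and 0.26 against −0.05, and the 2 of the fourth class 0.09 against −0.13 and 0.25 against −0.08. In these classes the subunits lay above other genes of like implied length. Implied and principal length were close for Sdhc (3250 and 3171 bases). They were far apart for Ndufb7 (4522 and 623), Cox6c (3567 and 738) and Uqcrc1 (4135 and 1653), whose principal lengths lie in the range of the shortest class. A comparison by principal length was not made. Ndufs1, the 1 subunit in the longest class, had −0.61 and −0.21 beside medians of −0.32 and −0.17 for that class. Its principal transcript has 2661 bases, a length in the range of the class with medians of 0.09 and 0.04. The difference between the shortest and longest class, in median deviation from the control mean, was −0.30, 0.27 and 0.03 in control mice 16, 17 and 19, 0.64 and 0.53 in the labelled restored mice, 0.51 and 0.17 in the ascorbate mice and −0.39 in mouse 12. Mouse 17 was again the control nearest to the treated mice. Across all genes the Spearman correlation of length and fold change was −0.38 for the labelled restored and −0.22 for the ascorbate comparison over 10192 genes, and within the 58 subunits it was −0.08 for both. For the primary library it was 0.36 over 10231 genes and 0.26 within the 58. Genes are not independent replicates, and they share the same libraries.

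**Figure D5:**
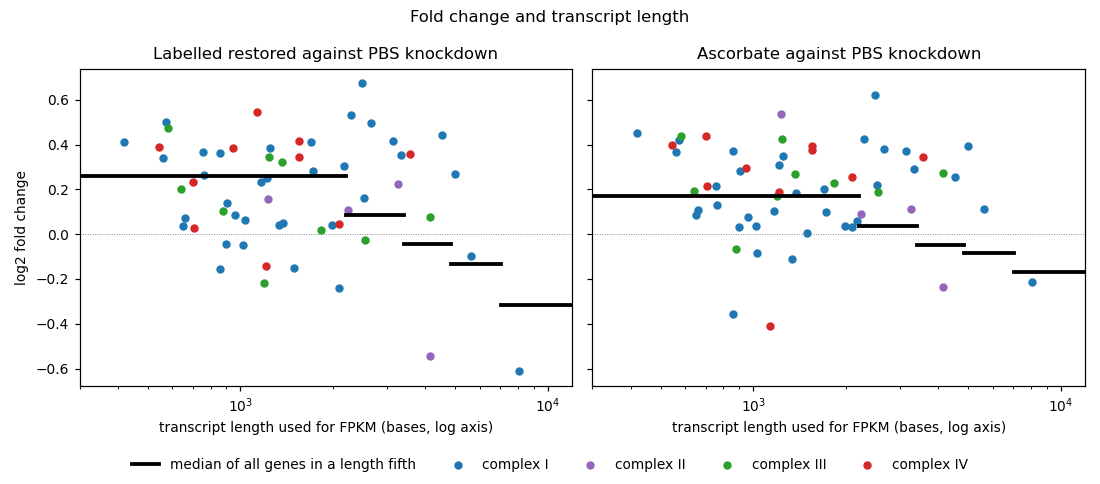
Log2 fold change (vertical) against the transcript length implied by the deposited FPKM (horizontal, bases, log axis) for the 58 subunits, coloured by complex; black bars are medians of all genes in each of 5 length classes. The bars step down from 0.26 to −0.32 at left and from 0.17 to −0.17 at right, and the 42 subunits of the shortest class have medians of 0.22 and 0.20.

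The length and GC offset that took the medians of the 58 to −0.04 and 0.08 moved single subunits by different amounts. Ndufv3 had 0.55 and 0.60 in the 2 comparisons with the offset, Ndufs4 had 0.55 in the first and Sdhd 0.43 in the second. Sdha had −0.46 in the first (adjusted p = 0.0710), close to its value without the offset, while Ndufs1 had −0.29 (adjusted p = 0.200), Ndufa2 0.12 and Cyc1 −0.73 (adjusted p = 0.0645). In the second, Ndufa1 had 0.28, Sdha −0.10 and Ndufs1 −0.01.

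The libraries, labelled AE9a-positive leukaemic cells, also held markers of other cell types of the spleen. The macrophage and basophil sums lay outside the control range in all mice of both treated groups, and some other sums did so in 1 group. Macrophage and monocyte markers, of which 13 of 14 were tested, summed to 118 to 141 CPM in the controls, 59.4 and 21.2 in the labelled restored mice, 46.9 and 51.9 in the ascorbate mice and 84.6 in mouse 12. Of the 13, Mertk, Mrc1 and Vcam1 fell in the ascorbate mice by edgeR, where 1.77% of all genes fell, and none of any list passed in the labelled restored mice. Basophil and mast cell markers summed to 483 to 625 CPM in the controls, 1185 and 1431 in the labelled restored mice, 788 and 1125 in the ascorbate mice and 1468 in mouse 12, and 2 of 10 tested, Cma1 and Il4, rose in the ascorbate mice, where 1.09% of all genes rose. In the leukaemia and progenitor list Prtn3 and Spi1 rose there. These calls are among the 347 that mostly depended on single libraries. Erythroid markers summed to 6078 to 13461 CPM in the controls, 11721 and 7765 in the labelled restored mice and 10779 and 6164 in the ascorbate mice, where the groups overlapped. Mature neutrophil, T and NK cell, and stromal markers summed to at most 48.9, 6.21 and 8.50 CPM in any library. B and plasma cell markers summed to 16.7 to 271 CPM, highest in mouse 12, and megakaryocyte markers to 89.0 to 192 CPM, with Ppbp and Gp1bb among those at 0 throughout. The part of these cells in the subunit values was not tested.

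The other parts of the pathway were not uniform. ATP synthase, which uses the proton gradient, had 16 of 17 subunits above 0 in the ascorbate mice with a median log2 fold change of 0.28, and 11 of 17 with 0.12 in the labelled restored mice, none past the threshold. Atp5d, a subunit of its rotor stalk, was at 349 and 287 CPM in the ascorbate mice against 180, 279 and 218, with 0.51 (SE 0.20, adjusted p = 0.162). In the labelled restored mice Atp5b, the catalytic beta subunit, had −0.41 (SE 0.14, adjusted p = 0.0961).
Of 5 tested subunits and isoforms outside the 58, 2 were above 0 in the labelled restored and 4 in the ascorbate mice. The most distinct of them was Cox7a2l. It was at 75.2, 75.5 and 75.5 CPM in the controls, 101 and 114 in the labelled restored and 113 and 102 in the ascorbate mice, with 0.52 (SE 0.14) in both comparisons and adjusted p of 0.0669 and 0.0810 by edgeR. The groups did not overlap, without passing the threshold.

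The subunits encoded in mitochondrial DNA were measured unevenly. Of 13, 7 were tested, and mt-Nd3, mt-Nd4l, mt-Co2, mt-Co3, mt-Atp6 and mt-Atp8 were listed at 0 or at most 0.537 CPM in each library. The 7 had medians of 0.08 in the labelled restored and 0.34 in the ascorbate comparison and −0.92 in the primary library, none past the threshold. mt-Co1, the catalytic subunit of complex IV, was at 21904, 29050 and 32864 CPM in the controls, 28257 and 41949 in the labelled restored mice, 55933 and 30523 in the ascorbate mice and 10646 in mouse 12. In each treated group the lower of the 2 mice lay within the control range.

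Assembly factors lay lower in the ascorbate mice, with 12 of 44 above 0 and a median of −0.17, where the subunits were at 0.22. One of 44 passed the threshold, a share near the 1.77% of all genes that fell. It was Tmem126b, a membrane protein needed to build complex I, which fell from 22.5, 19.8 and 20.8 CPM in the controls to 12.4 and 9.49, with −0.93 (SE 0.21, edgeR adjusted p = 0.0496). In the labelled restored mice 24 of 44 were above 0 with a median of 0.04, and none passed. Of 15 regulators of respiratory genes, 3 were above 0 in the ascorbate mice, with a median of −0.20, and 2 of 15 fell, against the same 1.77% of all genes. Myc, a transcription factor that drives growth, was at 351, 342 and 425 CPM in the controls and at 177 and 154 in the ascorbate mice, with −1.16 (SE 0.24, adjusted p = 0.0414). Gabpb2, a partner of the ETS factor GABPA, was at 178, 116 and 146 CPM in the controls and at 63.3 and 83.1, with −0.99 (SE 0.21, adjusted p = 0.0448). All 3 genes were lower in both ascorbate mice than in every control. Their calls were lost when any of control mice 16 or 19 or ascorbate mice 28 or 30 was left out, with adjusted p between 0.106 and 0.240. Without control mouse 17 that of Gabpb2 held at 0.0494, and Myc and Tmem126b were at 0.0661 and 0.0793. limma voom put all 3 above the threshold, with adjusted p of 0.0513 to 0.0586, limma-trend on FPKM put Gabpb2 at 0.0546 and 0.0552, and the length and GC offset put Tmem126b at 0.0999. In the labelled restored mice 1 of 15 regulators was above 0, with a median of −0.29, and none passed. Hcfc1, a cofactor of such promoters, had −0.59 (SE 0.15, adjusted p = 0.0628).

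Of 16 citric acid cycle genes, 4 were above 0 in the labelled restored mice with a median of −0.18, and 12 in the ascorbate mice with 0.09, none past the threshold. Dlat, a subunit of pyruvate dehydrogenase, and Idh3a, an isocitrate dehydrogenase subunit, had log2 fold changes of −0.54 (SE 0.17) and −0.60 (SE 0.20) in the labelled restored mice, with edgeR adjusted p of 0.0797 and 0.0936. In the primary library Suclg2, a subunit of succinyl-CoA synthetase, was at 15.1 CPM where the other 7 libraries had 0 to 0.288 CPM, and it passed the threshold (adjusted p = 0.0282). That call was lost without control mouse 17 or 19 or without labelled restored mouse 21 or 23 (adjusted p 0.0550 to 0.107). Of 72 proteins of the mitochondrial ribosome, 48 were above 0 in the labelled restored and 43 in the ascorbate mice, with medians of 0.16 and 0.06, none past the threshold. The 13 genes for cytochrome c, ubiquinone synthesis and import had medians of −0.19 in the labelled restored and −0.05 in the ascorbate comparison, with 5 above 0 in each.

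The nuclear genes of the chain are known targets of the factors NRF1, GABPA and YY1, so promoters were searched for their letters. RefSeq promoters (GRCm38.p6, 250 bases before to 50 after the start) were given for 48 of 58 subunits and for 27025 genes in all. On both strands the NRF1 letters GCGCATGC occurred in 7 of 48 (14.6%) against 3.05% of all promoters. With any base at the sixth position (GCGCANGC, a form chosen after the data were seen, which includes the first) it was 15 of 48 (31.3%) against 11.2%. The ETS letters CCGGAAG, bound by GABPA, occurred in 11 of 48 (22.9%) against 9.93%. The YY1 letters AAGATGGC occurred in 7 of 48 (14.6%) against 3.19%, and all 7 were promoters of complex I, of which 32 were given. The 3 promoters given for complex II, those of Sdha, Sdhb and Sdhd, all held GCGCANGC. The 27025 promoters include those of genes with too few counts to be tested here, and a background of tested genes alone was not used. A match is a description and not a site of binding. The promoters of 3 subunits with a high fold change in the ascorbate mice are shown as examples, as the 150 bases before the start on the gene's strand. Matches to GCGCANGC and to CCGGAAG, or their reverse complements, are in capitals. The stretch of Ndufv3 has no match. Ndufa1, with a higher fold change there than Cox6a1 (0.45 against 0.44), had no match in its promoter and is not shown. Sdha, with 3 matches to GCGCANGC, had −0.24. Whether matches and fold changes go together was not tested.
Sdhd, chr9:50603850-50603999, minus strand: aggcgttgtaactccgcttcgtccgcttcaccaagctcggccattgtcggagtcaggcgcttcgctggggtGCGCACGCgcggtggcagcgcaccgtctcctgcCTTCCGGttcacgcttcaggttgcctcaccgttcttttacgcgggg
Cox6a1, chr5:115348959-115349108, minus strand: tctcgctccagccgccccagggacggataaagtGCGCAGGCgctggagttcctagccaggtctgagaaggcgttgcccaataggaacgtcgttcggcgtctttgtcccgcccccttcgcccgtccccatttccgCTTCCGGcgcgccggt
Ndufv3, chr17:31519965-31520114, plus strand: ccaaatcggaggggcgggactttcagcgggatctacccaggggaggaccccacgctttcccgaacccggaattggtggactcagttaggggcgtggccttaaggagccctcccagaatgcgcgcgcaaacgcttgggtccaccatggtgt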

How the data were processed

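RNA-seq of 8 libraries was analysed. The authors deposited whole-number counts per gene and, in a second table, FPKM values; per the submitters' processing notes STAR, featureCounts and DESeq2 were used with mm10 (GRCm38), with versions, strand and multi-mapping not given in the sources used here. Per the labels' protocols, RNA was enriched with oligo-dT beads. As deposited, 26 symbols had been turned into dates. Transcript lengths were recovered from count and deposited FPKM. The edgeR 4.0.16 quasi-likelihood test (R 4.3.3, robust, TMM, filterByExpr with minimum count 10) was run on all genes, with Benjamini-Hochberg adjustment over all tested genes and a threshold of 0.05. The first 3 of 4 comparisons came from 1 fit of the 7 secondary libraries and the last from a fit of all 8. Fits were tested on simulated data in which all genes had the same spread. Libraries carry no molecular identifiers in the sources used here, so depth covers counting error only, and p-values measure the spread between mice.

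Alternatives were DESeq2 1.42.0, limma 3.58.1 (voom, and trend on log2(FPKM + 0.1) or log2(FPKM + 1) with at least 1 FPKM in 2 libraries), other scalings and filters, a length and GC offset (spline of 4 degrees of freedom) and leaving out each library. Members, lists and tests were chosen with earlier results of these data known. Named were the 4 subunits with the highest and the 4 with the lowest fold change in each of the first 3 comparisons, the 2 most and 1 least abundant per complex, the 3 most variable among controls and, of each list, genes past the threshold or else up to 2 with the smallest p. Other subunits (Uqcrfs1, Uqcrh, Cox4i1, Sdhb, Ndufv1, Ndufv2, Ndufb2, Ndufb4, Ndufb7) are named after their values were seen.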

Additional observations from a re-analysis of the deposited data

How the results depend on the processing

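No paired analysis was possible because no replicate number is shared between groups. For the labelled restored comparison, the count of 0 subunits past the threshold became 4 with the DESeq2 Wald test, where 16.1% of all genes passed. It was 3 without a filter on low counts, where 2207 of 22734 genes passed, and stayed 0 with each control mouse left out. The median of the 58, 0.23, became −0.044 with the length and GC offset, and those of complexes I to IV became −0.080, −0.097, −0.0015 and 0.033. With each library left out that of the 58 ran from 0.14 to 0.30. For the ascorbate comparison, the count of 0 became 2 with DESeq2, where 11% of all genes passed. It was 1 without a filter, where 1498 of 22734 genes passed, and stayed 0 with each control mouse left out. The ascorbate median of 0.22 ran from 0.13 to 0.32 with each library left out. With library totals that median was 0.10, and the median of all genes was −0.12. The complex II median of 0.10 became −0.014 with library totals and ran from −0.011 (without ascorbate mouse 28) to 0.20. Cox6a1 became −0.0069 with the offset. For the labelled restored against the ascorbate mice, the median ran from −0.13 to 0.12, and Ndufs5 ran from −0.29 to 0.55 and Ndufa7 from −0.015 to 0.42, with the negative values without labelled restored mouse 21. The primary median ran from −0.20 to −0.07. Counts over all genes moved more. The labelled restored count of 0 became 1951 with DESeq2, 1692 without mouse 21, 2207 without a filter, 367 with DESeq2 size factors in edgeR and 235 without mitochondrially encoded genes. The ascorbate count of 347 became 1339 with DESeq2, 1498 without a filter, 152 with limma voom, 222 with log2(FPKM + 1), 597 with the offset, 855 with only the groups compared and 796 and 763 without labelled restored mouse 21 or 23. The causes were not tested. Depth limits Cox7c and Ndufs5, with at most 81 and 50 counts in a library.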
